A study of Mus musculus with 12 samples.

Results

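The meiotic cell fraction of SV129 mouse testis was digested with 3 amounts of micrococcal nuclease (MNase), and the nucleosome calls of the 3 digestions were compared. These were all the lists whose label names the fraction Meiotic Spermatid, and they rest on 6 of the 12 samples and make up 3 of the 6 lists of calls in the series. The cells came from testes of male SV129 mice aged 8 to 12 weeks, with 11 mice per collection, and were sorted by STAPUT velocity sedimentation for 105 min to a purity of at least 85%. They were digested for 7.5 min at 37 °C with 0.5 U, 1 U or 2 U of MNase, and 2 samples per amount were pooled by the authors into 1 list of calls. The label names spermatids while the protocol names a meiotic fraction, and calls of nucleosomes hold no marker that could check the cell type. The round spermatid lists were not used.

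MNase cuts the linker DNA between nucleosomes and spares the DNA wrapped around histones, so sequenced fragments mark protected positions. Open chromatin is cut first and compact chromatin later, and strong digestion removes fragile particles, so the positions recovered depend on the amount of enzyme. In male meiosis the autosomes synapse along their length, while the X and Y chromosomes stay largely unpaired and form the silenced sex body, a compact domain with its own histone marks. Many mouse gene starts lie in GC-rich stretches with many CpG dinucleotides, which tend to hold few stable nucleosomes in active cells.

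Each list gave intervals of 140 bp with a p-value and no read count. At 0.5 U the list held 42178 calls, at 1 U it held 60077 and at 2 U 65614. The p-values matched Poisson tails of whole read counts, with a smallest count of 6 reads in every list and a mean per window of 0.434 reads for 0.5 U, 0.484 for 1 U and 0.507 for 2 U. The implied coverage was thus higher with each step in MNase, and the part it has in the differences below was not tested. Since each amount had 1 list, no difference could be set against replicate error and no test was possible. The 95% intervals given are for counting error only and are too narrow, because neighbouring calls overlap. Places crowded with calls were set aside where stated: a 10 kb bin was called dense if any of the lists had over 20 calls there. Outside such bins 35415 calls remained for 0.5 U, 51570 for 1 U and 56653 for 2 U on 21 chromosomes. In pooled cells, the share of cells that hold a nucleosome at a place and the strength of its protection cannot be told apart.

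Promoter sequences of 4 genes show 3 of the call patterns met along the titration. Of 1593 genes with a call within 1000 bp of the start outside dense bins, 204 were called at 0.5 U alone, 508 at 1 U alone, 747 at 2 U alone and 22 at all 3 amounts. No promoter of the 1 U pattern is shown. Each promoter printed runs 5′ to 3′ on the gene's strand, from 250 bp before to 50 bp after the RefSeq transcription start of GRCm38.p6, with the bases under a call of any of the 3 lists in capitals. Fto came from the naming rule, and the others were chosen after their values were seen. The first is Slc35b1, coding for a nucleotide transporter of the endoplasmic reticulum, at chr11:95384606-95384905 on the + strand, which was called at every amount. The second is Fto, coding for an RNA demethylase, at chr8:91313275-91313574 on the + strand, which was called only at 0.5 U. The third is Pfkl, coding for the liver form of phosphofructokinase, at chr10:78009758-78010057 on the - strand, and the last is Ift57, coding for a subunit of intraflagellar transport, at chr16:49699044-49699343 on the + strand. Both of these were called only at 2 U.
Slc35b1: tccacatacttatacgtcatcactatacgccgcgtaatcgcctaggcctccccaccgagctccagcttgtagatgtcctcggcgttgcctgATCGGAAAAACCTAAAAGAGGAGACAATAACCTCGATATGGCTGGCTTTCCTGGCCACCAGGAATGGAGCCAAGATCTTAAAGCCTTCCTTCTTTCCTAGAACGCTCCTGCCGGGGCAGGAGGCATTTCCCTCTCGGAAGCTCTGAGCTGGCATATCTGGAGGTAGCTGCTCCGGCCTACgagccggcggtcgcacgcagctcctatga
Fto: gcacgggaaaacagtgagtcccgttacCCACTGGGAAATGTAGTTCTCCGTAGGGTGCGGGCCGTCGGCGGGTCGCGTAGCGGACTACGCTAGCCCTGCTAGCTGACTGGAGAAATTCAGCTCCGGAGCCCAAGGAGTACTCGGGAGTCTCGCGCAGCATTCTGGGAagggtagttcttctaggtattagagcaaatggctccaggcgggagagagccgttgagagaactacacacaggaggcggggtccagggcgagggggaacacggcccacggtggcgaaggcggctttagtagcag
Pfkl: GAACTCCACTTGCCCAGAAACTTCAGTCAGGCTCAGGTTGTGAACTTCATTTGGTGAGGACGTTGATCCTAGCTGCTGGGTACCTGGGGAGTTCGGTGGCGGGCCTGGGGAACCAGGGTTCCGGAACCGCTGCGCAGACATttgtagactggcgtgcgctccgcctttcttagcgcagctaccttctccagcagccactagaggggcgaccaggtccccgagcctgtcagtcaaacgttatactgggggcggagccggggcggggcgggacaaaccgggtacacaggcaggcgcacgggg
Ift57: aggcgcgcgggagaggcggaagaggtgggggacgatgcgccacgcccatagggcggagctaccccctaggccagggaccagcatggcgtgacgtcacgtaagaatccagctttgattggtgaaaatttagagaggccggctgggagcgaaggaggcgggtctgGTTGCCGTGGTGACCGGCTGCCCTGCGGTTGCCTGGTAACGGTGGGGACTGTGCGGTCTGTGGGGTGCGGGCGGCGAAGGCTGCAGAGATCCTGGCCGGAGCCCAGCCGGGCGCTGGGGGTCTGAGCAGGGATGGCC

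The Slc35b1 calls lay almost on top of each other at all amounts. Their midpoints were at -82 and -49 bp from the start at 0.5 U, at -89 and -62 bp at 1 U, and at -89 and -54 bp at 2 U, with at most 8, 6 and 8 implied reads in that order. The window held 55.7% G or C. The Fto call stood at -153 bp with 7 implied reads at 0.5 U, and no call overlapped the window at 1 U or 2 U. The Fto window held 60.7% G or C and 23 CpG dinucleotides. At Pfkl the 3 calls of 2 U had midpoints at -235, -215 and -180 bp and up to 9 implied reads, in a window of 62.3% G or C. At Ift57 the 2 calls of 2 U lay at -17 and 13 bp with up to 7 implied reads, in a window of 67.7% G or C, so that the capitals run across the transcription start itself.

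The next question was where calls lay around transcription starts at each amount. Of 21887 protein-coding genes, 17492 had a start in the promoter table, which did not cover chromosome 18. Calls within 1000 bp of a start were 0.905 times as frequent at 0.5 U as the base pairs of these windows would give. At 1 U the ratio was 1.40 and at 2 U it was 1.77. The share at 2 U over that at 0.5 U was 0.97 on the log2 scale (95% interval 0.82 to 1.12), with 1408 of 61228 calls at 2 U and 458 of 38983 at 0.5 U. At the 3′ ends of the same genes the ratios were 0.756 at 0.5 U, 0.886 at 1 U and 0.985 at 2 U, and the log2 ratio of 2 U over 0.5 U was 0.38 (0.21 to 0.56). Taken over the whole window of 1000 bp on each side, starts were thus slightly below the genome mean at 0.5 U and above it at 1 U and 2 U. Close to the start, calls were denser than in the flanks even with the least enzyme. Outside dense bins, the stretch from 400 bp before to 200 bp after the start was set over flanks at 1000 to 2000 bp. Per bp, the 0.5 U list held 2.95 times the calls of the flanks there. This ratio was 3.77 in the 1 U list and 4.59 in the 2 U list. The 3′ ends were below the mean at 0.5 U and 1 U, and at the mean within counting error at 2 U. Outside dense bins 276 genes had a start call at 0.5 U, 610 at 1 U and 863 at 2 U, and 22 of these genes had one at all 3 amounts.

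The pattern at starts differed with the base composition of the promoter. Genes were put in 3 classes by the GC content of the window from 250 bp before to 50 bp after the start, and a core from 400 bp before to 200 bp after the start was set over flanks at 1000 to 2000 bp on both sides. In the 6745 genes with at least 60% GC the core had 50 calls in the 0.5 U list, 211 in the 1 U list and 371 in the 2 U list. Per bp, the core of these genes held 3.03 times the calls of the flanks at 0.5 U (2.07 to 4.44). The ratio was 6.22 at 1 U (4.95 to 7.82) and 8.53 at 2 U (7.04 to 10.3). Cores with a call were found in 34 genes at 0.5 U (0.504% of the class), 124 genes at 1 U (1.84%) and 226 genes at 2 U (3.35%). The intervals of 2 U and 0.5 U did not overlap.

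Other promoter classes did not show this order. In the 5458 genes of 50 to 60% GC the ratios of core over flank were 6.43, 4.55 and 6.06 at 0.5 U, 1 U and 2 U. In the 5289 genes under 50% GC they were 1.67, 2.17 and 1.84. The log2 ratio of core over flank at 2 U over that at 0.5 U was 1.49 in the GC-rich class (0.87 to 2.11), -0.09 in the middle class (-0.62 to 0.44) and 0.14 in the GC-poor class (-0.33 to 0.62). The intervals of the GC-rich class and of both others did not overlap, but the difference between classes was not tested. At 3′ ends of the GC-rich class the same log2 ratio was -0.20 (-1.12 to 0.72). Both core and flank were higher at 2 U in the middle class, where the log2 ratio of the share was 0.90 for the core and 0.99 for the flanks.

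The profile in 200 bp steps showed the shape of the signal in the GC-rich class. At 0.5 U the densities were 31.4 calls per Mb per 100000 calls from 400 to 200 bp before the start, 46.1 in the 200 bp before it and 27.2 in the 200 bp after it. At 1 U the same steps held 81.9, 90.6 and 131, and at 2 U they held 166, 124 and 195. The step just before the start was thus the lowest of the 3 at 2 U and the highest of the 3 at 0.5 U, though it rested on 95 calls at 2 U and 22 at 0.5 U. In the middle class the highest step at every amount was the one after the start, with 132 calls per Mb per 100000 at 0.5 U, 181 at 1 U and 293 at 2 U.

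**Figure D1:**
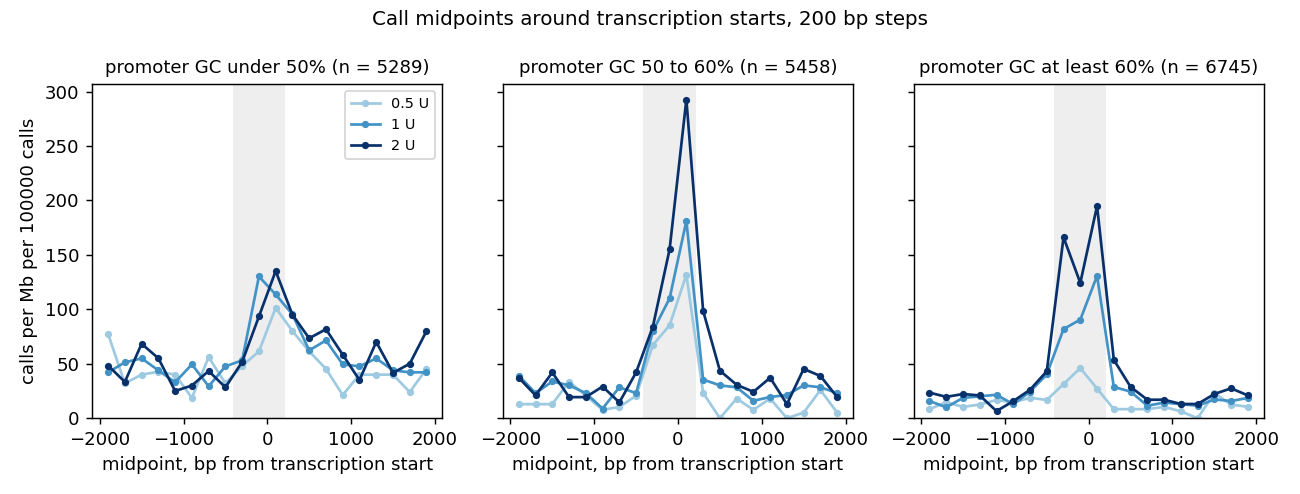
Call midpoints around transcription starts outside dense bins, as calls per Mb of window per 100000 calls of the list (y) in 200 bp steps from the start (x), for promoters in 3 GC classes, with the amounts as light to dark lines and the core window shaded. In promoters of at least 60% GC the 2 U line reaches 195 after the start where the 0.5 U line has 27.2, while in promoters under 50% GC the lines of the 3 amounts cross each other.

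Within the 300 bp promoter window itself, a call midpoint was found in 82 of the 17492 genes at 0.5 U (0.469% of promoters), in 178 at 1 U (1.02%) and in 240 at 2 U (1.37%). Promoters of at least 60% GC made up 25.6% of those called at 0.5 U, 34.3% at 1 U and 39.6% at 2 U, against 38.6% of all promoters. The promoters called at 2 U were thus close to all promoters in this share, and those called at 0.5 U were below them, with an interval of 16.6% to 36.4%. Among the 2057 promoters of 65 to 70% GC, 6 were called at 0.5 U, 16 at 1 U and 46 at 2 U. That is 0.292% of the class at 0.5 U (0.107% to 0.634%), 0.778% at 1 U and 2.24% at 2 U (1.64% to 2.97%). Promoters of at least 70% GC had few calls at every amount, with 2, 12 and 10 of 2089 called at 0.5 U, 1 U and 2 U.

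Of the 46 promoters of 65 to 70% GC called at 2 U, 42 were called at no lower amount, 3 were also called at 1 U and 1 was also called at 0.5 U. Among all genes with a call within 1000 bp of the start at 2 U, 747 of 863 had none at a lower amount. A call at 2 U alone was thus also common among starts at large. The windows differ, with 300 bp for the promoters and 1000 bp on each side for the starts. The shares are therefore unlike measures, and whether the class differs from other starts was not tested. Of the 46 promoters, 18 had at least 2 calls at 2 U, and the genes below were picked from them after their values were seen. Tmem80, coding for a transmembrane protein, and Pum2, coding for an RNA-binding repressor of translation, each had 3 calls at 2 U and none at 0.5 U or 1 U. Ints12, coding for a subunit of the Integrator complex, had 2 calls of up to 9 implied reads at 2 U and none at the other amounts. Gosr2, a Golgi SNARE gene, Upf2, a gene of nonsense-mediated RNA decay, and Ralb, a small GTPase gene, had 2 calls each at 2 U and none at 0.5 U or 1 U. Tomm70a, which codes for a mitochondrial import receptor, was the 1 promoter shared with 0.5 U, with 2 calls at 2 U and 1 at 0.5 U. Tyw5 and Stam had 2 calls each at 2 U and at 1 U and none at 0.5 U. In 17 of the 18 the highest implied count was 6 to 8 reads, close to the smallest listed count of 6.

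The genome at large was then described by gene content. Autosomal 1 Mb bins were grouped by the number of protein-coding gene starts they hold, and dense bins were left out. For these bins the lower coordinate of a gene was taken as its start, whatever its strand. Bins with no gene start are called gene-free below, though they can lie inside a long gene. In the 284 bins with no gene start, the calls per bin over the autosomal mean of the list were 1.61 at 0.5 U (1.57 to 1.65), 1.27 at 1 U and 1.05 at 2 U (1.03 to 1.08). In the 247 bins with more than 20 gene starts they were 0.549 at 0.5 U (0.525 to 0.574), 0.682 at 1 U and 0.787 at 2 U (0.764 to 0.810). The log2 ratio of 2 U over 0.5 U was -0.61 with no gene start, -0.14 with 1 to 5, 0.23 with 6 to 10, 0.45 with 11 to 20 and 0.52 with more than 20. Gene-free and gene-rich bins thus lay farther apart at 0.5 U than at 2 U. In plain calls per bin, gene-free bins had 23.0, 26.8 and 24.4 at 0.5 U, 1 U and 2 U. Bins with more than 20 gene starts had 7.86, 14.4 and 18.3 calls at the same amounts.

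**Figure D2:**
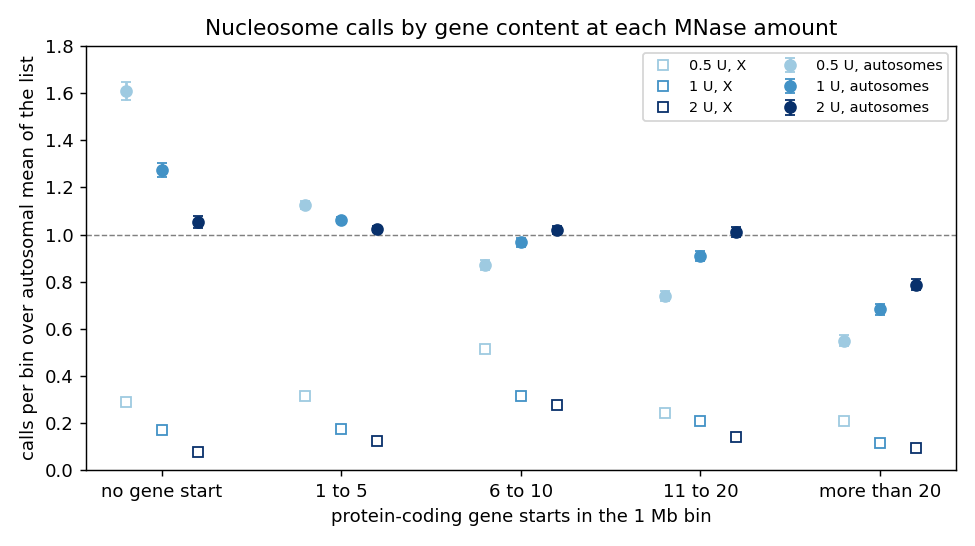
Calls per 1 Mb bin over the autosomal mean of the same list (y) for bins grouped by protein-coding gene starts (x), with autosomes as filled points with 95% counting intervals, X as open squares, and the amounts of MNase from left to right in each group. Autosomal gene-free bins stand at 1.05 at 2 U and 1.61 at 0.5 U, bins with more than 20 starts at 0.787 and 0.549 at the same amounts, and every X point lies below the autosomal point of its class.

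Gene bodies followed the same order. Protein-coding gene bodies covered 38.7% of the base pairs, and held 28.8% of calls at 0.5 U, with 32.0% at 1 U and 34.7% at 2 U. The log2 ratio of 2 U over 0.5 U was 0.27 (0.24 to 0.30). Space outside any annotated gene held 59.9% of calls at 0.5 U, with 56.3% at 1 U and 53.6% at 2 U, against 53.3% of base pairs. The 7925 genes under 10 kb had the highest log2 ratio of 2 U over 0.5 U among the length classes, at 0.95 (0.76 to 1.14). It was 0.64 for genes of 10 to 50 kb, 0.50 for genes of 50 to 200 kb and 0.22 for genes of 200 to 500 kb. The 227 genes of at least 500 kb were the only class with a negative value, at -0.19 (-0.26 to -0.12).

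Chromosomes differed in the same way. Outside dense bins, chromosome 11 had a log2 ratio of 2 U over 0.5 U, relative to all autosomes, of 0.38 (0.28 to 0.48), chromosome 9 of 0.22 (0.13 to 0.32) and chromosome 7 of 0.20 (0.11 to 0.28). Chromosome 3 stood at -0.15 (-0.22 to -0.08) and chromosome 14 at -0.14 (-0.22 to -0.06). Over the 19 autosomes this ratio and the number of protein-coding genes per Mb had a Pearson r of 0.82 and a Spearman rho of 0.83. The 19 values share the same 3 lists, so these coefficients only describe them.

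The X chromosome stood apart from all autosomes. Its calls outside dense bins were 831 at 0.5 U, 737 at 1 U and 599 at 2 U, so that X had fewer calls at each step while the lists as a whole had more. Relative to the autosomes its density was 0.347 at 0.5 U (0.323 to 0.371), while 1 U gave 0.209 (0.194 to 0.225) and 2 U gave 0.154 (0.142 to 0.167). With dense bins included the log2 ratio of 2 U over 0.5 U was -1.03 (-1.17 to -0.88), and without them it was -1.17 (-1.32 to -1.02). X lay below the autosomes in each of the 5 gene-content classes at each amount, with log2 ratios of 2 U over 0.5 U from -1.88 in gene-free bins to -0.79 in bins with 11 to 20 starts. The mice were male, so X and Y had fewer copies than each autosome. The part of copy number in these values was not tested. All 9 segments of X, of 20 Mb each except the last, had fewer calls at 2 U than at 0.5 U, with log2 ratios of the share from -1.73 to -0.79. The Y chromosome had 69 calls at 0.5 U, with 78 at 1 U and 89 at 2 U outside dense bins, and its log2 ratio of 2 U over 0.5 U was -0.33 (-0.78 to 0.12), an interval that spans 0.

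**Figure D3:**
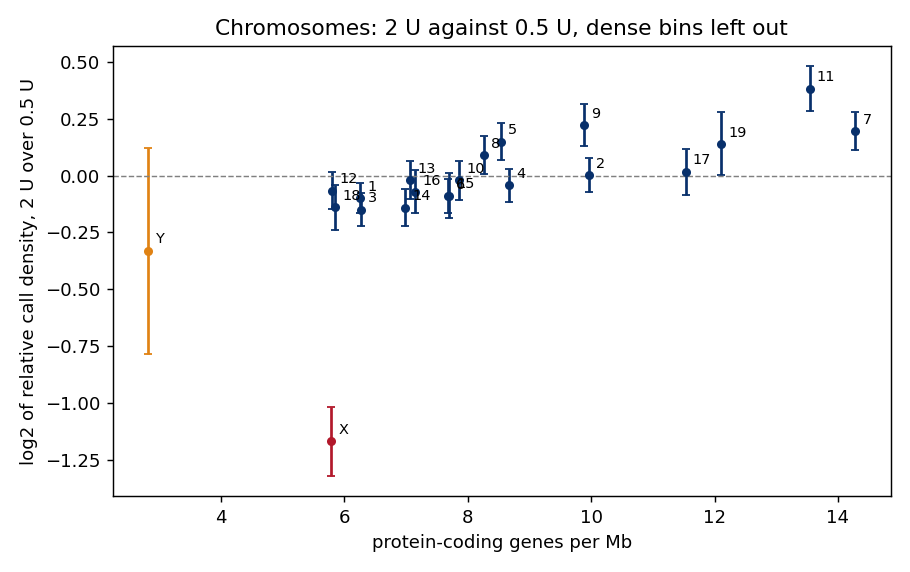
Log2 ratio of relative call density at 2 U over 0.5 U (y) against protein-coding genes per Mb (x) for each chromosome outside dense bins, with 95% counting intervals. Gene-rich chromosome 11 is highest at 0.38 and X lies far below every autosome at -1.17.

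Few X genes held enough calls to be followed. Of 7 X genes with at least 10 calls, 3 had a share at 2 U at most 0.5 times that at 0.5 U and none had a share at least 2-fold higher. Among all 1170 protein-coding genes with at least 10 calls these shares were 14.5% and 25%. Dmd, the dystrophin gene, had 18 calls at 0.5 U, with 11 at 1 U and 6 at 2 U. Zc3h12b, of a family of CCCH zinc finger genes, had 8 calls at 0.5 U, with 3 at 1 U and 0 at 2 U. Frmpd4 had 8, 2 and 5 calls in the same order of amounts, a log2 ratio of -1.36 with an interval that spans 0 (-2.97 to 0.26). The other X genes had as many calls at 2 U as at 0.5 U, or more. Il1rapl1, a synaptic adhesion gene of the IL-1 receptor family, had 3 calls at 0.5 U, with 3 at 1 U and 7 at 2 U. Cldn34d had 11, 9 and 11 calls at these amounts, Apool had 9, 8 and 11, and Il1rapl2 had 4, 4 and 5. Unlike X at large, a dense place on it had more calls at each step. It lies at chrX:169970001-169990000 over Mid1, a ubiquitin ligase gene that crosses the pseudoautosomal boundary in the mouse reference genome, and held 17 calls at 0.5 U, with 42 at 1 U and 51 at 2 U. It was picked out after its values were seen.

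Single positions were then followed between the lists. Outside dense bins the 3 lists gave 96077 positions when midpoints within 73 bp were joined, and 98.1% of these were called at only 1 amount. Positions called at 0.5 U alone numbered 23341, at 1 U alone 33747 and at 2 U alone 37169. Pairs of amounts shared 369 (0.5 U and 1 U), 377 (0.5 U and 2 U) and 749 (1 U and 2 U) positions, and 325 were called at all 3. With dense bins included, 12.7% of the 0.5 U calls had a 2 U midpoint within 73 bp. Outside dense bins 4.30% had one (4.09% to 4.52%), where such windows cover 0.231% of the base pairs. Of the 2 U calls, 2.84% had a 0.5 U midpoint (2.70% to 2.98%), where the windows cover 0.146%. Shared positions were thus many times the share of area they could fill, and still a small part of each list.

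Whether a position was kept went with the height of the call. Calls of 6 implied reads were found in another list in 1.33% to 2.36% of cases, over the 6 directions of comparison. For calls of 7 reads the share was 2.86% to 5.17%, for 8 or 9 reads 11.1% to 17.2%, and for 10 or more reads 64.1% to 80.3%. Calls of 6 reads made up 73.1% of the list outside dense bins at 0.5 U, 76.0% at 1 U and 74.9% at 2 U. With most calls at the smallest count, a single position lost between lists may differ by 1 read.

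**Figure D4:**
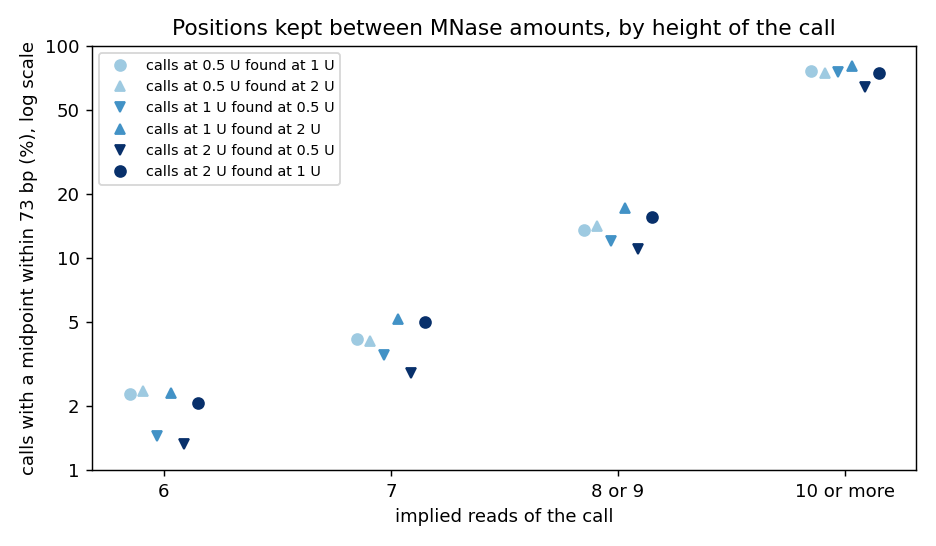
Share of calls outside dense bins with a midpoint of another list within 73 bp (y, log scale) by implied reads of the call (x), for the 6 ordered pairs of MNase amounts. At 6 reads all pairs lie between 1.33% and 2.36%, and at 10 or more reads between 64.1% and 80.3%.

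Positions called at 2 U alone and at 0.5 U alone lay in different places. Of the 2 U-only positions 36.0% lay in protein-coding gene bodies, against 29.3% of the 0.5 U-only positions. Within 1000 bp of a transcription start there were 2.16% of the 2 U-only and 1.02% of the 0.5 U-only positions. Gene-free autosomal bins held 12.5% of the 2 U-only and 19.2% of the 0.5 U-only positions, and gene-rich bins held 8.06% and 5.43%. X held 345 of the 2 U-only positions (0.928%) and 528 of the 0.5 U-only positions (2.26%). The 1 U-only positions lay between them in each of these measures, with 32.9% in gene bodies, 1.65% near starts and 1.37% on X. Of the positions called at all 3 amounts 61.5% had 10 or more implied reads and 4.04% lay near a start.

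The 10 genes by rule with start calls at all 3 amounts were Gm32584, 4931408C20Rik, Gm36079, Gm52481, Ugt1a1, Zfp985, Tctn2, Sp140, 2410141K09Rik and Gbf1. Gm32584, a predicted gene on chromosome 5, had 9 calls within 1000 bp of its start at each amount. Tctn2, coding for a protein of the ciliary transition zone, had 3 start calls at 0.5 U, with 2 at 1 U and 5 at 2 U. Gbf1, coding for a Golgi exchange factor, had 2, 3 and 3. Ugt1a1, a bilirubin glucuronosyltransferase gene that shares exons with its neighbours, had 1, 4 and 7. Several of the 10 are predicted genes or members of families with near-identical copies, for which reads may have been split between copies.

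Gene by gene, the calls within a body and 1000 bp on each side were compared as shares of the list outside dense bins. A call lay in 8884 of the 21887 protein-coding genes, and 1170 genes had at least 10 calls over the 3 lists. Of these 1170, 292 (25% of them) had a share at 2 U at least 2-fold that at 0.5 U, and 170 (14.5%) at most 0.5-fold, with 0.5 calls added. Their median log2 ratio was 0.11, or 0.13 with amounts at 0 calls set to 3. None was tested, and with counts of this size a 2-fold ratio rests on a few calls. Among calls of more than 6 implied reads, which leave far fewer genes with 10 calls, 48 genes were at least 2-fold higher and 53 at least 2-fold lower at 2 U. Just inside the 2-fold limit lay Grin2a, with 4 calls at 0.5 U, with 18 at 1 U and 14 at 2 U, and 2410141K09Rik, with 14, 24 and 11. Just outside lay Cacnb2, with 10 calls at 0.5 U, with 9 at 1 U and 8 at 2 U, and Chil3, with 10, 12 and 8.

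The 10 genes with the highest ratio had no call at 0.5 U outside dense bins. Cdh23, the cadherin gene of hair cell tip links at chr10:60302748-60696513, had 0 calls at 0.5 U, with 9 at 1 U and 26 at 2 U. With 0 set to a floor of 3 calls per list, its share was 5.42-fold higher at 2 U. Folds with this floor leave out the counting error of the other count, so they are not lower bounds. Slc39a11, a zinc transporter gene on chromosome 11, had 0 calls at 0.5 U, with 7 at 1 U and 21 at 2 U, 4.38-fold higher at 2 U with the floor. Zfp423, a zinc finger transcription factor gene on chromosome 8, had 0, 7 and 20 calls at the same amounts, 4.17-fold higher at 2 U with the floor. Slc35f3 had 0 calls at 0.5 U, with 4 at 1 U and 19 at 2 U. Gabbr2, a GABA-B receptor subunit gene, had 0, 4 and 18, and Kalrn, a gene of neuronal signalling, had 0, 7 and 17. Ankfn1, Mthfd1l, Cachd1 and Kcnj6 had 0 calls at 0.5 U, 3 to 8 at 1 U and 12 to 15 at 2 U. In all 10 genes the 1 U count lay between the others, which the rule favours because it picks extremes of the other amounts. Of the 1170 genes with at least 10 calls, 95 had no call at 0.5 U and 9 had none at 2 U. The 0.5 U list was shorter (35415 calls against 56653), which makes a count of 0 more likely there.

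The 10 genes with the lowest ratio had at most 2 calls at 2 U. Angpt1, an angiopoietin gene at chr15:42424667-42676977, had 11 calls at 0.5 U, with 4 at 1 U and 0 at 2 U, 5.87-fold lower at 2 U with the same floor. Stat4, a transcription factor gene of interleukin-12 signalling, had 11, 3 and 0, also 5.87-fold lower at 2 U with this floor. Supt3, a SAGA complex subunit gene, had 8 calls at 0.5 U, with 6 at 1 U and 0 at 2 U. Chil4, a chitinase-like gene on chromosome 3 with close copies, had 19 calls at 0.5 U, with 8 at 1 U and 2 at 2 U, a log2 ratio of -3.93 (-6.03 to -1.82). Arnt2, a bHLH-PAS factor gene, had 6, 8 and 0. Pam, a peptide amidation enzyme gene, and Tjp1, the gene of the tight junction protein ZO-1, each had 5, 7 and 0, and 1700113H08Rik had 5, 5 and 0. Fto had 3 calls at 0.5 U, with 9 at 1 U and 0 at 2 U over its body, so that both amounts compared were at or under the floor and no fold is given.

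**Figure D5:**
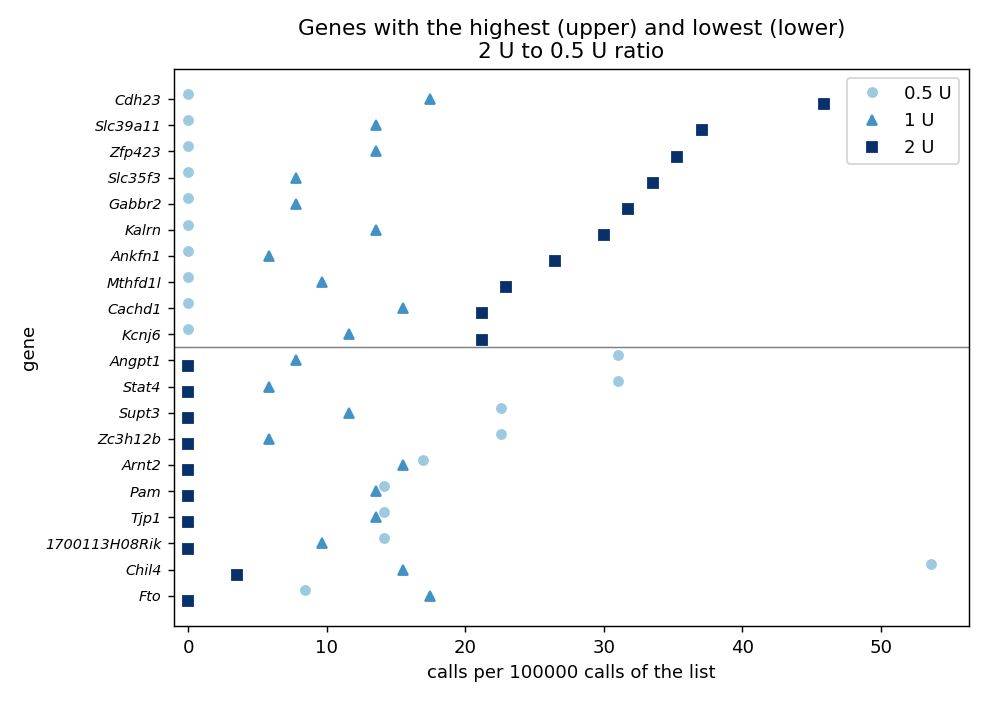
Calls per 100000 calls of the list outside dense bins (x) for the genes (y) with the 10 highest and the 10 lowest ratios of 2 U to 0.5 U, with 0.5 U as light circles, 1 U as triangles and 2 U as dark squares. The upper genes reach 45.9 at 2 U in Cdh23 and are at 0 at 0.5 U, and the lower genes are at or near 0 at 2 U and reach 53.7 at 0.5 U in Chil4.

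Whole 1 Mb bins differed between amounts as well. Of 2162 autosomal bins with at least 30 calls over the 3 lists, 341 (15.8%) had a share at least 2-fold higher at 2 U and 186 (8.6%) a share at least 2-fold lower, with a median of 9 gene starts in the first set and 1 in the second. The bin chr4:148000001-149000000, with 20 gene starts that include Mtor and Casz1, had 0 calls at 0.5 U, with 23 at 1 U and 24 at 2 U. The next bin, chr4:149000001-150000000 with Kif1b and Pik3cd, had 0, 14 and 19. The bin chr16:34000001-35000000, which holds Mylk and part of Kalrn, had 0 calls at 0.5 U, with 11 at 1 U and 22 at 2 U. The bin chr10:78000001-79000000, which holds Pfkl, Aire and Dnmt3l, a germ cell partner of the DNA methyltransferases, had 0, 14 and 20. The bin chr9:107000001-108000000, with 32 gene starts that include Rassf1 and Gnai2, had 0, 13 and 19.

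The bins with the lowest ratios held 1 gene start or none. The bin chr15:42000001-43000000, where Angpt1 is the only protein-coding gene, had 26 calls at 0.5 U, with 10 at 1 U and 7 at 2 U, a 5.94-fold lower share at 2 U. The bin chr4:51000001-52000000, with Cylc2, a gene of the sperm head cytoskeleton, had 41 calls at 0.5 U, with 31 at 1 U and 12 at 2 U, a 5.47-fold lower share. The bin chr2:16000001-17000000, with Malrd1 and Plxdc2, had 31, 36 and 9. The bin chr14:82000001-83000000 has no protein-coding gene and had 33, 25 and 11. A gene-free bin on chromosome 18 had 23 calls at 0.5 U, with 29 at 1 U and 7 at 2 U.

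Gene groups of the testis were then read against all protein-coding genes. Of the 8884 genes with a call, 54.8% had a higher share at 2 U than at 0.5 U and 25.6% a lower one. The 2 U list was longer (56653 calls against 35415 outside dense bins), so a gene with a lone call more often counts as higher. The part of list length in this split was not tested. The lists below were set up with earlier results of these data known, and none was tested. Of 51 genes of meiotic recombination and synapsis, 22 had a call, with 7 higher and 11 lower at 2 U. Together they had 16 calls at 0.5 U, with 20 at 1 U and 18 at 2 U, a log2 ratio of -0.51 (-1.48 to 0.46), against 0.31 for all genes. Mei4 and Rec114, partners in making meiotic double-strand breaks, had 3 and 1 calls at 0.5 U, 4 and 5 at 1 U, and 4 and 5 at 2 U. Of 52 spermiogenesis genes, 19 had a call, 11 higher and 2 lower at 2 U, with 7 calls at 0.5 U, with 24 at 1 U and 23 at 2 U. Spag16, an axoneme gene of the sperm tail, had 0, 9 and 4 of these.

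Genes that mark other testis cells followed, and both group values rest in part on few genes. Of 29 spermatogonia genes, 17 had a call, 11 higher and 6 lower at 2 U, with 18 calls at 0.5 U, with 33 at 1 U and 47 at 2 U. The log2 ratio was 0.71 (-0.08 to 1.49), an interval that spans 0 and holds the 0.31 of all genes. Zbtb16, coding for a spermatogonial transcription factor, gave 0 of the group's calls at 0.5 U, with 4 at 1 U and 11 at 2 U. Its share was 2.29-fold higher at 2 U with 0 set to 3 calls, which leaves out the counting error of the 11 calls. Gfra1, coding for the GDNF receptor, had 2, 5 and 7. The 30 Sertoli and Leydig cell genes had 27 calls at 0.5 U, with 31 at 1 U and 16 at 2 U, a log2 ratio of -1.43 (-2.33 to -0.54), with 8 genes higher and 6 lower among 15 with a call. Fshr, the receptor of follicle-stimulating hormone, gave 13 of these at 0.5 U, 9 at 1 U and 2 at 2 U, and Tjp1 gave 5, 7 and 0. Without Fshr and Tjp1 the list gave 9 calls at 0.5 U, with 15 at 1 U and 14 at 2 U, a log2 ratio of -0.04 (-1.25 to 1.17), so the group value rests on these genes. Nucleosome calls over a gene do not measure its expression, and the lists do not say which cells the calls came from.

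Other groups were described in the same way. The 52 histone acetylation genes had 38 calls at 0.5 U, with 47 at 1 U and 57 at 2 U, a log2 ratio of -0.09 (-0.69 to 0.50), with 10 higher and 8 lower among 22 with a call. Hdac9, a deacetylase gene, had 14, 12 and 22, and Mllt3, a reader of acylated histones, had 12, 5 and 5. The 88 developmental transcription factor genes had 39, 78 and 90 calls at 0.5 U, 1 U and 2 U, with 17 higher and 8 lower among 32 with a call. Housekeeping genes and ribosomal protein genes, short and few in calls, had 1 call each at 0.5 U, 7 and 9 at 1 U, and 8 and 10 at 2 U. Of 123 vomeronasal type 2 receptor genes, pheromone receptors in clusters of similar copies, 77 had a call, 20 higher and 37 lower at 2 U. They had 122 calls at 0.5 U, with 136 at 1 U and 98 at 2 U, a log2 ratio of -0.99 (-1.38 to -0.61). Vmn2r44 gave 10, 16 and 8 of them. The 1110 olfactory receptor genes had 82, 138 and 154 calls, a log2 ratio of 0.23 (-0.16 to 0.62). Spo11, Sycp3, Prm1, Tnp1, Kat2a, Brdt, Ldhc and Pgk2, genes fixed by name, had no call outside dense bins at any amount, which allows up to 3 calls each per list.

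Dense places were called at nearly every amount. The 176 dense bins held 15.6% of calls at 0.5 U, with 13.7% at 1 U and 13.1% at 2 U, and 82.7% to 84.0% of the calls with 10 or more implied reads. On the 21 chromosomes they formed 83 regions, of which 82 were called at all 3 amounts and 15 (18.1%) differed by at least 2-fold in share between 2 U and 0.5 U. The region chr2:22580001-22590000 inside Myo3a, a myosin gene, was the exception called at fewer amounts, with 35 calls at 0.5 U, with 8 at 1 U and 0 at 2 U. The region chr1:24610001-24620000, which holds Gm10222 and Gm10925 and is known for a nuclear copy of mitochondrial DNA, had 124 calls at 0.5 U, with 75 at 1 U and 12 at 2 U, a 16.1-fold lower share at 2 U. At the other end, chr8:19990001-20000000 had 2 calls at 0.5 U, with 5 at 1 U and 27 at 2 U. This region passed the rule only at 2 U, and the Myo3a region only at 0.5 U, so the rule favours their directions. The region chr12:20260001-20280000 had 6, 47 and 45. The region chr10:58220001-58240000, with the double homeobox gene Duxf3, had 22 calls at 0.5 U, with 65 at 1 U and 81 at 2 U, a 2.37-fold higher share at 2 U. How reads from repeated sequence were placed is not stated in the labels.

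Outside dense bins, the positions with the most implied reads were called at all amounts by rule. The position in Chl1, a neural adhesion gene on chromosome 6, had 4 overlapping calls at each amount, the strongest with p-values under 1e-300, for which the read count is not resolved. The position in E030030I06Rik on chromosome 10 had 7 calls at each amount, with up to 125, 136 and 125 implied reads at 0.5 U, 1 U and 2 U. The position in Aida on chromosome 1 had up to 92, 105 and 116 reads, in the order of the implied coverage. The position in Cldn34d, the X gene among the 10, had 5 calls at each amount and up to 103 reads at 0.5 U, 74 at 1 U and 67 at 2 U, with its lowest value at 2 U and its highest at 0.5 U.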

How the data were processed

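MNase-seq calls of 6 samples were analysed as 3 lists, 1 per amount. Reads were processed with STAR 2.5.2a on GRCm38/mm10, per the submitters' processing notes. A nucleosome caller or threshold is not given in the sources used here. The authors deposited intervals of 140 bp with a p-value per call, pooled over both samples of an amount, so replicate agreement was not analysed. Only the 3 lists of the meiotic fraction were read. The samples of a group are not stated to be separate animals.

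The 8 largest distinct p-values of a list were matched to upper tails of 1 Poisson distribution, which gave the smallest read count, the mean and the implied reads of every call; values under 1e-300 took the next count. Gene positions and promoter sequences came from RefSeq tables of GRCm38.p6 (49943 genes on 21 chromosomes; 17492 of 21887 protein-coding genes matched a start, 1 per gene, nearest its outer 5′ end, none on chromosome 18). Shares have Clopper-Pearson intervals, counts exact Poisson intervals and log2 ratios normal intervals from counts, at 95%, for counting error only. No test was run, as every amount has 1 list.

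Members and gene lists were chosen with earlier results of these data known. GC classes, the core window, X segments and the choice of Slc35b1, Pfkl and Ift57 followed after the values were seen. The histone list was corrected after it had matched a gene of another kind. By rule, the text names the 10 genes (at least 10 calls) and 5 bins (at least 30 calls) at each end of the 2 U over 0.5 U ratio with 0.5 calls added, 10 genes with start calls at all amounts, the extreme dense regions, the highest shared positions, members of lists with most calls, and 8 fixed genes. Some are given as counts. Python 3.11.15, numpy 2.4.6, pandas 2.3.3, scipy 1.17.1 and matplotlib 3.10.9 were used, and the steps were tested on simulated data.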

Additional observations from a re-analysis of the deposited data

How the results depend on the processing

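No paired analysis was possible because each list pools both replicates of an amount, and for the same reason no replicate could be left out. Of 39 alternatives to 12 results, 22 stayed within the counting interval (within 1.5 times for counts) and 17 lay outside it. No log2 ratio changed sign. The list ratio, the share kept and the counts have no sign, so they could not turn in this sense. With only calls of more than 6 implied reads, the list ratio of 2 U over 0.5 U was 1.45 (1.56 with all calls), 24.8% of the 0.5 U calls were kept at 2 U (12.7%), the log2 ratio of gene bodies was 0.21 (0.27) and that of dense bins -0.10 (-0.25). Genes past 2-fold were then 48 higher (292) and 53 lower (170) at 2 U, so the excess of higher genes was gone. With at least 20 calls per gene there were 87 higher and 67 lower. Kept calls were 4.30% without dense bins, 9.89% within 20 bp and 14.4% within 140 bp. Merging overlapping calls gave log2 ratios of -1.18 for X (-1.03) and -0.36 for dense bins, and a limit of 40 calls per dense bin gave -0.32. Bins of 500 kb gave -0.45 for gene-free (-0.61) and 0.61 for gene-rich bins (0.52). Among alternatives added after the data were seen, the log2 ratio of core over flank at GC-rich starts, 2 U over 0.5 U, was 2.18 at a GC of at least 65% (1.49 at 60%), and it stayed within its interval with merged calls, with genes counted once and above 6 reads.

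The number of reads behind each list is unknown, and most calls stand at the smallest count, so whether such a position is listed can depend on 1 read. Exons, introns and untranslated regions were not separated.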

Other observations

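Other kinds of annotated genes were read in the same way, outside dense bins. Immunoglobulin and T cell receptor V segments, short coding pieces in clusters of similar copies, held 13 calls at 0.5 U, with 24 at 1 U and 40 at 2 U over 394 segments. That was 5.60 times their share of base pairs at 0.5 U, 7.10 times at 1 U and 10.8 times at 2 U, with a log2 ratio of 2 U over 0.5 U of 0.94 (0.04 to 1.85). Dense regions over Igh, the heavy chain locus, were left out here, and most had a lower share of the whole list at 2 U. The largest, chr12:115590001-115630000, held 189, 212 and 212 calls at 0.5 U, 1 U and 2 U, a log2 ratio of -0.47. The region chr12:113710001-113720000 was nearly equal, with 33.2 calls per 100000 at 0.5 U and 33.5 at 2 U. Pseudogenes stood at 1.45 times their share of base pairs at 0.5 U, 1.79 times at 1 U and 1.71 times at 2 U, a log2 ratio of 0.24 (0.08 to 0.39). Long noncoding RNA genes stood at 1.03, 1.11 and 1.13 times at 0.5 U, 1 U and 2 U, a log2 ratio of 0.14 (0.07 to 0.20). The 408 tRNA genes held 1 call, at 1 U, and the 1228 miRNA genes held 1 call, at 2 U.

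The clustered protocadherins are neural adhesion genes that share exons, so 1 call counts once for each gene it lies in. Summed over 55 genes in this way, they gave 2 calls at 0.5 U, with 94 at 1 U and 46 at 2 U. Pcdhga1 and Pcdhga2, among the members with most calls, each had 0 calls at 0.5 U, with 4 at 1 U and 3 at 2 U. Distinct calls were not counted, so the sums do not show at which amount these genes held most calls. The 62 replication-dependent histone genes gave 5 calls at 0.5 U, with 4 at 1 U and 3 at 2 U. Unplaced contigs held 1845 calls at 0.5 U, with 2244 at 1 U and 2403 at 2 U, of which a single contig gave 1485, 1729 and 1758.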
